A study of Xenopus laevis with 11 samples.

Results

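The Snail and Twist factor genes were followed on Xenopus laevis arrays through 3 probe sets, one each for snai1.S, snai2.L and snai2.S, of 7531 genes that the array names by a single symbol and 15491 probe sets that are not controls. They are all the probe sets whose single gene symbol in the platform's annotation, without regard to case or to the suffix .L or .S, is snai1, snai2 or twist1. The suffixes mark the copies (homeologs) of a gene on the long and the short chromosome of a pair in this allotetraploid frog. The array's only twist1 probe set carries the symbols of both twist1.L and twist1.S and was not read, so the members are Snail genes only. The tissue was microdissected from embryos grown at 15 °C, for which the labels name no transgene or treatment, and 10 ug of RNA per array was hybridised. The 11 arrays fell into 5 groups. The neural border was dissected on 3 arrays at stage 14 and on 2 at stage 18. The other groups were 2 arrays of stage 12 neural plate, 3 of stage 18 anterior neural fold and a single one of animal cap, ectoderm cultured until stage 14. Replicates are given as biological, but clutches and animals are not named, and the p-values therefore cover the spread of these arrays alone, some of which may be technical.

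Snail proteins are zinc finger transcription factors that bind E-box sequences and mostly repress transcription, classically of E-cadherin and other genes of epithelial junctions. In the frog embryo snai2, also called Slug, is a standard marker of the premigratory neural crest, the cells that leave the edge of the neural plate and form pigment cells, peripheral neurons and facial skeleton. The related snai1 is also known from the mesoderm of the gastrula and acts in crest formation as well. Twist proteins are basic helix-loop-helix factors of the same process, and Snail and Twist proteins are turned over by shared ubiquitin ligase components.

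Levels are log2 intensities, so that a difference of 1 is a 2-fold difference, and a level was compared between arrays. Levels of different gene probe sets were set against each other only in the difference between the snai2 copies. Control probe sets that should bind no frog transcript, the 17 tag controls, had a 95th percentile of 3.72, and a level below it was taken as not told apart from background. Differences were tested with limma across all 15491 probe sets, with a standard error (SE) from that model and p-values adjusted by Benjamini-Hochberg within each comparison against a threshold of 0.05. Marker lists set the animal cap and the anterior fold apart. A list of 12 epidermis genes averaged 8.22 in the animal cap and between 5.18 and 7.05 on the other arrays. For 11 neural plate genes the averages were 5.30 in the cap and 7.92 to 8.46 elsewhere, which does not tell plate, border and fold apart. A list of 9 forebrain genes averaged 7.36 to 7.94 in the anterior fold. It averaged 4.49 to 5.14 in the plate, 4.73 to 5.05 in the stage 14 border and 3.85 to 4.02 in the stage 18 border. The 4 cement and hatching gland genes averaged 8.66 to 8.95 in the anterior fold, 5.07 in the cap and 3.58 to 3.67 in the plate. They averaged 5.67 to 5.78 in the stage 14 border and 7.12 to 7.14 in the stage 18 border. Whether the border dissections of both stages had the same make-up was not tested. In dissected tissue, fewer cells that express a gene and less RNA per cell cannot be told apart.

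**Figure D1:**
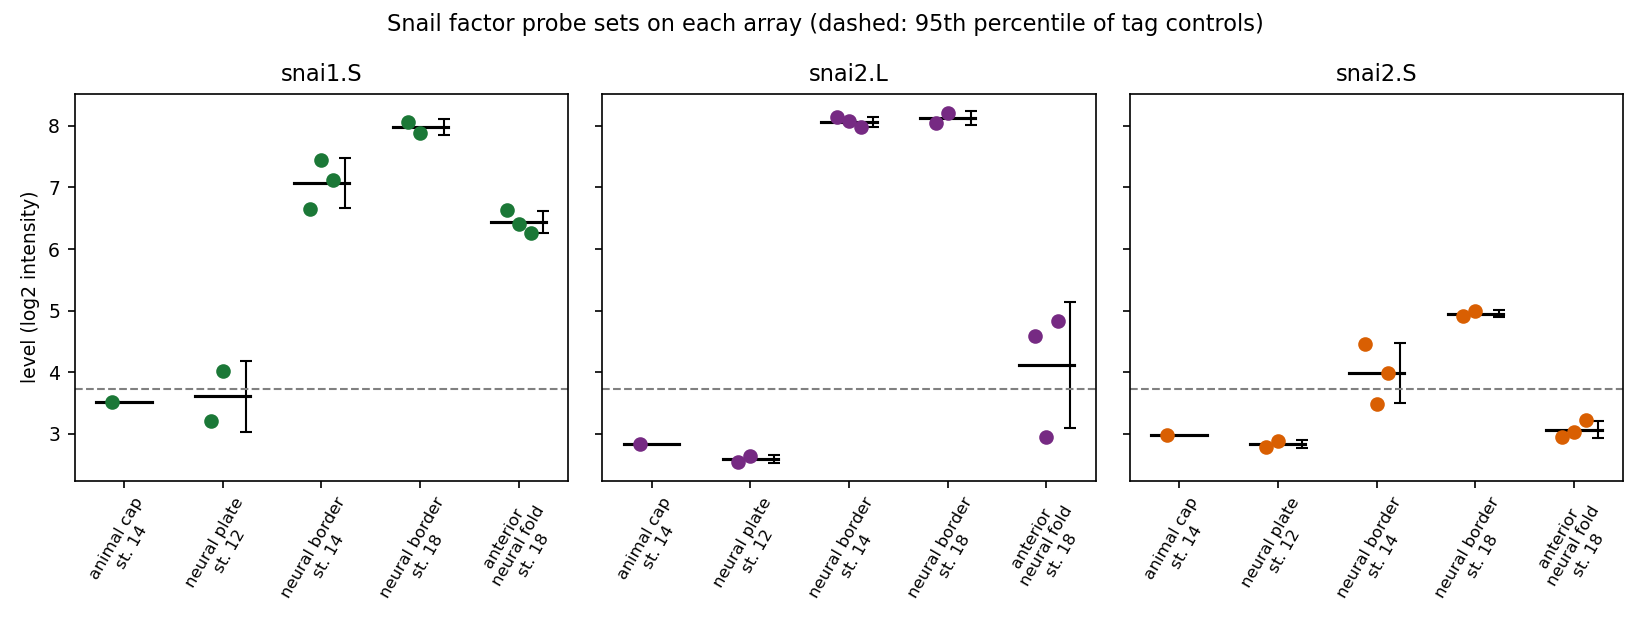
Level (log2 intensity) of snai1.S, snai2.L and snai2.S on each of the 11 arrays, with group means as horizontal bars and the 95th percentile of the tag controls (3.72) as a dashed line. All 3 probe sets have their highest group mean in the stage 18 border, and snai2.L is at background in the animal cap, the plate and one anterior fold array.

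The level of snai2.L was high in the neural border at both stages and at background in the plate and the cap. It read 8.14, 8.08 and 7.98 on the 3 border arrays of stage 14, and 8.05 and 8.21 on the 2 of stage 18. It read 2.55 and 2.63 in the stage 12 plate and 2.83 in the animal cap, all below the background level. The border arrays of the 2 stages overlapped, and every one of them lay above every array of the other 3 tissues. The anterior neural fold was divided, with 4.58 and 4.83 on replicates 1 and 3 and 2.95, within background, on replicate 2.

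The snai2.L difference between the stage 14 border and the plate was 5.48 (SE 0.43, adjusted p = 9.79e-06). Because the plate reads at background, the fold is a lower bound, and against the background level of 3.72 the border was at least 20.3-fold higher. All 3 Snail probe sets were higher in this comparison, in which 41% of probe sets passed the threshold in either direction and 19.6% were higher, so that the count of members passing says little by itself. Their ranks from the highest difference were 5 for snai2.L, 56 for snai1.S and 1037 for snai2.S, and with all levels below 3.72 raised to 3.72 they were 17, 61 and 3511. The tissue and the stage change together between these 2 groups and cannot be told apart. Against the single animal cap array, where 30.9% of probe sets passed and 15.1% were higher, the stage 14 border was again higher for all 3, and snai2.L ranked 9, or 16 with raised levels (difference 5.23, SE 0.55, adjusted p = 0.000103).

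From stage 14 to stage 18 the border level of snai2.L changed by 0.06 (SE 0.43, adjusted p = 0.957), a difference inside the error of the model. That error pools the spread of all groups, and the fold arrays spread more than the border arrays. Without anterior fold replicate 2 the limma SE of the same difference was 0.12 (adjusted p = 0.841). Between the 2 dissections of stage 18, snai2.L was higher in the border than in the anterior fold by 4.01 (SE 0.43, adjusted p = 0.000476). It ranked 5 from the highest difference, or 6 with raised levels. With anterior fold replicate 2 raised to the background level, the border was at least 13.5-fold higher than the anterior fold. All 3 Snail probe sets passed here, against 5.97% of all probe sets in either direction and 3.31% higher. The value depends on the low fold array, and without anterior fold replicate 2 the snai2.L difference was 3.42 (adjusted p = 3.43e-06).

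The snai1.S probe set also had its highest group means in the border, but it read above background on every anterior fold array too. It read 6.64, 7.44 and 7.12 in the stage 14 border and 8.07 and 7.89 in the stage 18 border. It read 6.64, 6.41 and 6.27 in the anterior fold, 3.20 and 4.01 in the plate and 3.51 in the cap. The stage 18 arrays lay above those of stage 14, and the lowest stage 14 border array and the highest fold array lay side by side. One of the 2 plate arrays was above the background level, and the other and the cap array were below it.

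Against the plate, snai1.S in the stage 14 border was higher by 3.46 (SE 0.27, adjusted p = 8.68e-06). With plate replicate 1 raised to the background level, it was at least 9.19-fold higher. Against the cap it was higher by 3.56 (SE 0.34, adjusted p = 5.7e-05). The step from the stage 14 to the stage 18 border, 0.91 (SE 0.27), did not pass at adjusted p = 0.0742. It passed without stage 14 border replicate 2 (adjusted p = 0.0496). The stage 18 border exceeded the anterior fold by 1.54 (SE 0.27, adjusted p = 0.00739), a 2.91-fold difference that needs no bound, since both tissues were above background.

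Set against the stage 14 border, the anterior fold differed by -0.63 for snai1.S (SE 0.24, adjusted p = 0.111), by -3.95 for snai2.L (SE 0.39, adjusted p = 0.000194) and by -0.91 for snai2.S (SE 0.21, adjusted p = 0.016). Thus 2 of the 3 Snail probe sets were lower in the fold, in a comparison where 14.8% of probe sets passed and 7.35% were lower. The snai2.S call was lost without stage 14 border replicate 3 (adjusted p = 0.0549), without fold replicate 1 or 2 (adjusted p = 0.0535 in both), and with levels raised to the background level (adjusted p = 0.319). The difference between the snai1.S and snai2.L values was not tested. Against the plate the fold was higher for snai1.S by 2.83 (SE 0.27, adjusted p = 1.8e-05) and for snai2.L by 1.53 (SE 0.43, adjusted p = 0.0147), where 47.5% of probe sets passed and 23.4% were higher. The snai2.L call of fold over plate was lost without plate replicate 1 (adjusted p = 0.0816) or replicate 2 (adjusted p = 0.0618), and with raised levels (adjusted p = 0.146). Against the cap, where 38.6% of probe sets passed and 18.7% were higher, snai1.S was higher in the fold by 2.93 (adjusted p = 0.000127), while snai2.L at 1.29 (SE 0.55) did not pass (adjusted p = 0.0918). It did pass without anterior fold replicate 2, at 1.87 (adjusted p = 8.64e-05).

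The snai2.S probe set was dim, and only the border read above background. It read 4.92 and 4.99 in the stage 18 border and 4.46, 3.49 and 3.99 in the stage 14 border, where replicate 2 was within background. It read 2.79 and 2.88 in the plate, 2.99 in the cap and 2.95, 3.03 and 3.22 in the anterior fold, all within background. The border arrays of either stage did not overlap with those of any other tissue, and the 2 border stages did not overlap with each other. The share of all probe sets without overlap between groups was not counted, here or for the other Snail probe sets. Since most of its levels lie below 3.72, every fold of snai2.S against the plate, the cap or the fold is limited by that floor.

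The stage 18 border exceeded the stage 14 border for snai2.S by 0.97 (SE 0.23, adjusted p = 0.0372), the only one of the 3 Snail probe sets to pass between the border stages. In this comparison 6.56% of probe sets passed and 3.78% were higher. The call rests on few arrays: of the 10 fits that left out 1 array each, it passed without stage 14 border replicate 1 (adjusted p = 0.00687) or replicate 2 (adjusted p = 0.0435), and in the others the adjusted p lay between 0.0523 and 0.133. Over the anterior fold the stage 18 border was higher by 1.89 (SE 0.23, adjusted p = 0.000917), at least 2.35-fold. Over the plate the stage 14 border was higher by 1.14 (SE 0.23, adjusted p = 0.00273), but with levels below 3.72 raised to 3.72 the difference was 0.34 and did not pass (adjusted p = 0.255). Over the cap it was higher by 0.99 (SE 0.29, adjusted p = 0.0272), and with raised levels by 0.34 (adjusted p = 0.425). The cap call was also lost without stage 14 border replicate 3 (adjusted p = 0.0589).

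**Figure D2:**
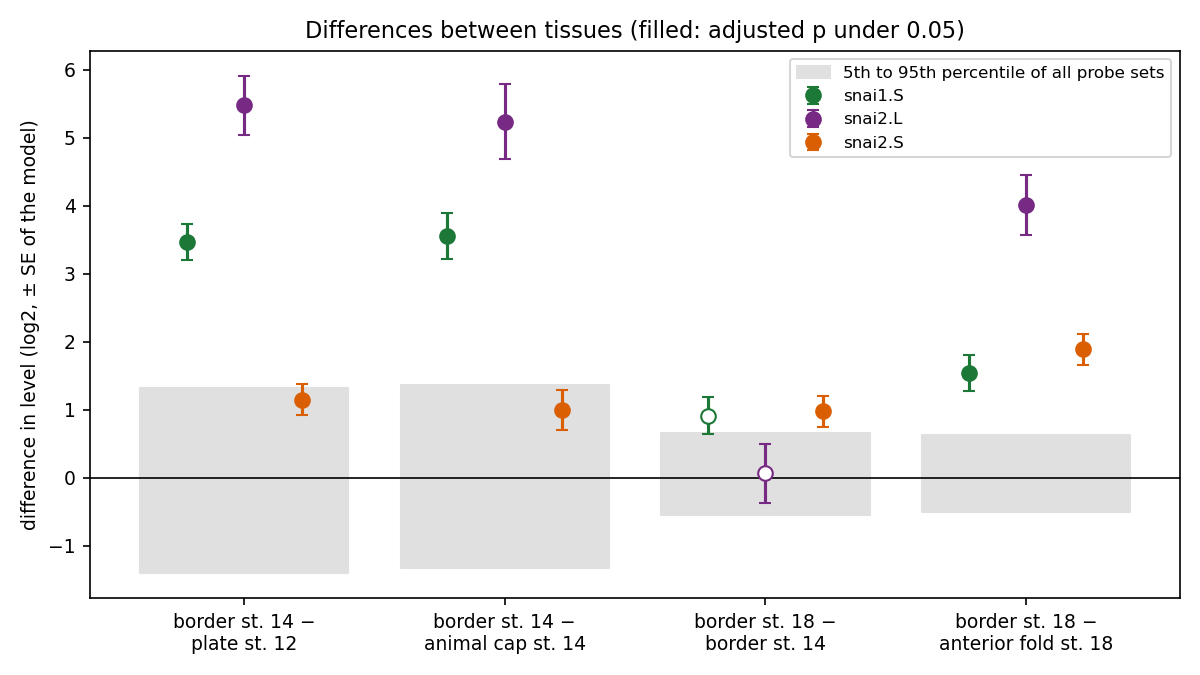
Difference in level (log2) for the 3 Snail probe sets in the 4 main comparisons, with bars of 1 SE from limma and the range from the 5th to the 95th percentile of all 15491 probe sets in grey. In the comparison of border with plate snai2.L is at 5.48, snai1.S at 3.46 and snai2.S at 1.14.

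The order of the 5 tissues by group mean was led by the stage 18 border and then the stage 14 border and the anterior fold for each of the 3 probe sets. For snai1.S the group means were 7.98 ± 0.13 (SD, n = 2), 7.07 ± 0.40 (SD, n = 3) and 6.44 ± 0.19 (SD, n = 3), followed by 3.61 ± 0.57 (SD, n = 2) in the plate and 3.51 in the cap. Neighbours in that order did not differ past the threshold except the fold and the plate, whereas the stage 18 border and the fold did differ. For snai2.L the means were 8.13 ± 0.11 (SD, n = 2) and 8.07 ± 0.08 (SD, n = 3) in the border and 4.12 ± 1.02 (SD, n = 3) in the fold, and the cap and plate, at background, could not be ordered. For snai2.S the means were 4.95 ± 0.05 (SD, n = 2), 3.98 ± 0.49 (SD, n = 3) and 3.07 ± 0.14 (SD, n = 3), and the fold, cap and plate were all at background. Between the stage 18 border and the plate, where 44.5% of probe sets passed and 22.1% were higher, the differences were 4.37 for snai1.S, 5.54 for snai2.L and 2.12 for snai2.S, and all 3 passed. They passed also between the stage 18 border and the cap (33.2% of probe sets, 16.3% higher), at 4.47, 5.30 and 1.96 in the same order. Between the plate and the cap, where 31.3% of probe sets passed, the differences were 0.10, -0.24 and -0.15, and the adjusted p lay between 0.764 and 0.877. These comparisons share arrays and are not independent of each other.

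The 2 copies of snai2 were compared through the difference of their log2 levels on each array. A constant offset of either probe set cancels between arrays only where both copies read above background. In the plate and the cap neither copy did, and in the anterior fold snai2.S did not. On stage 14 border replicate 2 snai2.S, at 3.49, did not either. Copy differences against the plate, the cap and the fold, and their ranks, therefore also depend on how bright each probe set is in the border. The copy difference between the border stages also includes that level of snai2.S within background. Taken relative to its mean in the plate, the .L minus .S difference was 3.92, 4.84 and 4.24 on the stage 14 border arrays and 3.38 and 3.47 on those of stage 18. It was 1.88, 0.17 and 1.85 in the anterior fold and 0.09 in the cap. Every border array thus lay above every array of the other tissues. The stage 14 arrays all lay above those of stage 18. Among the 1017 genes measured for both copies, the share without overlap between groups was not counted.

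Between the stage 14 border and the plate the snai2.L difference exceeded that of snai2.S by 4.33 (SE 0.44, adjusted p = 2.82e-05). Both copies were within background in the plate, and with levels raised to the background level the copy difference was 4.01. By size it ranked 1 among the 1017 genes measured for both copies, and 2 with raised levels. Of these genes 36.5% passed in either direction, the median size was 0.40, and 257 had a copy whose mean over all arrays lay below the background level. Against the cap, where 22.3% of pairs passed, it was 4.24 (SE 0.56, adjusted p = 0.000402). From stage 14 to stage 18 of the border the snai2.S change exceeded that of snai2.L, a copy difference of -0.91 (SE 0.44), but this did not pass (adjusted p = 0.276), in a comparison where 6% of pairs passed. Its SE also pools the spread of the fold arrays, and with 1 array left out the value ranged from -1.11 to -0.66.

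Between the stage 18 border and the anterior fold the copy difference was 2.12 (SE 0.44, adjusted p = 0.016), where 5.51% of pairs passed, and raised levels gave 2.52. It ranked 5 by size, or 4 with raised levels. It was no longer past the threshold without stage 18 border replicate 1 (adjusted p = 0.0998) or replicate 2 (adjusted p = 0.104). In the fold against the stage 14 border (15% of pairs) the copy difference was -3.03 (SE 0.40, adjusted p = 0.000491). These values say that the probe set of the .L copy moved further than that of the .S copy. Whether both probe sets respond in equal measure to their transcripts, or whether either also binds the other copy, was not tested, and the bottom of the snai2.S range lies at background.

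**Figure D3:**
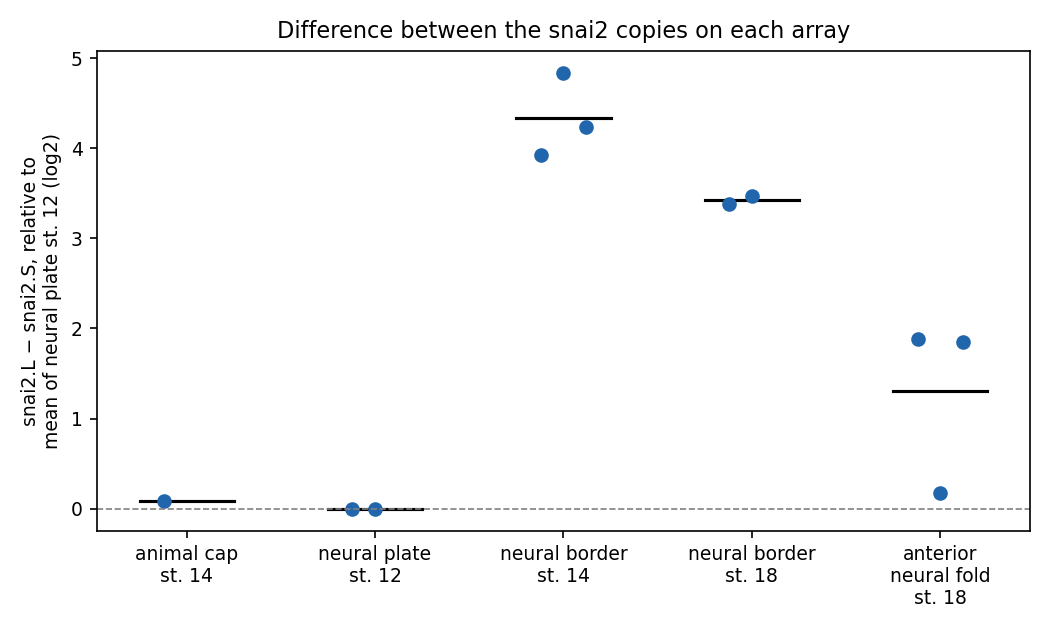
The snai2.L minus snai2.S difference in log2 level on each array, relative to its mean in the plate, with group means as horizontal bars. Every border array lies above every array of the other tissues. The share of all genes measured for both copies without such overlap was not counted.

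Anterior fold replicate 2 stood apart for snai2.L but was not the lowest fold array for snai1.S or snai2.S. The other crest genes were examined on the same arrays. Of 10 measured crest specifiers, 5 were higher in the stage 18 border than in the fold (50%, against 3.31% of all probe sets). Among them foxd3.S, which encodes a forkhead factor of early crest, read 4.25, 3.67 and 4.87 on fold replicates 1, 2 and 3 against a stage 18 border mean of 8.27. The SoxE gene sox9.S read 6.23, 5.33 and 6.39 against 9.12, and the AP-2 gene tfap2b.L read 4.68, 3.94 and 5.00 against 8.93. Another SoxE gene, sox10.L, was within background on all fold arrays, at 3.33, 2.78 and 3.16 against 7.01. The Ets factor gene ets1.L did not have its lowest value on replicate 2, with 4.60, 4.80 and 4.87 against 7.16.

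Replicate 2 was thus the lowest fold array for 4 of these 5 genes, 1 of which was within background on all 3. Over all 10 measured crest specifiers replicate 2 was the lowest for 6. These included myb.S and rxrg.L, both within background on all fold arrays. Besides ets1.L, it was not the lowest for id3, at 10.00, 10.09 and 10.17, mitf.L or ednra.L. The share over all probe sets was not counted. The means of the neural plate, forebrain, axial mesoderm, neuron and cement and hatching gland lists also had their lowest fold values on replicate 2. The epidermis list and the lateral mesoderm, blood and macrophage list had their highest there, at 6.43 and 4.26. The muscle and placode lists were lowest on replicate 3. A part of the dissection margin or of array quality in these values was not tested.

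**Figure D4:**
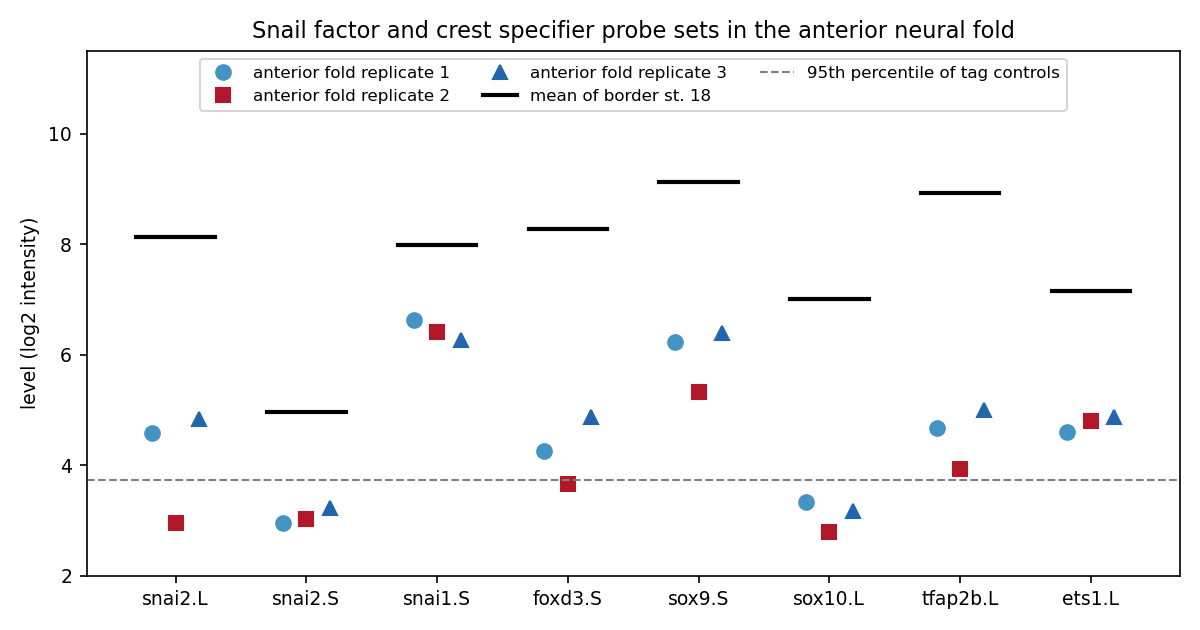
Level (log2) of snai1.S, snai2.L, snai2.S and 5 crest specifiers on the 3 anterior fold arrays, with the mean of the stage 18 border and the background level of 3.72. Replicate 2 has the lowest value for snai2.L, foxd3.S, sox9.S, sox10.L and tfap2b.L, but not for snai1.S, snai2.S or ets1.L.

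The genes whose pattern over the 11 arrays was most like that of each Snail probe set were taken from 1331 probe sets with 1 symbol and a range of group means of at least 2. Pearson's r is given as a description, since the arrays fall into 5 groups and the candidates were chosen for a wide range over them. Closest to snai2.L were the 2 probe sets of pdgfra.L, a receptor of platelet-derived growth factor used by migrating crest, at 0.988 and 0.977, tfap2b.L at 0.986, the protocadherin gene pcdh8l.S at 0.983 and sox9.S at 0.982. Closest to snai1.S were lrrn1.L, a leucine-rich repeat membrane protein gene, at 0.980, the prolyl isomerase gene fkbp9.L at 0.979 and its other copy fkbp9.S at 0.976, mdk.S, the gene of the heparin-binding factor midkine, at 0.979, and dpysl3.L, a gene of the cytoskeleton of growing axons, at 0.974. The fold means of these 5 probe sets lay within 1 of their stage 14 border means, for example 9.65 for mdk.S in the fold against 9.98 in the stage 14 border and 7.11 in the plate. They were chosen for their likeness to snai1.S on the same arrays, so this is no separate result.

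Closest to snai2.S were hoxa2.L at 0.959, sox10.L at 0.956, hoxa3.S at 0.951, the amino acid transporter gene slc7a8.S at 0.946 and the Wnt ligand gene wnt3a.S at 0.928. The Hox genes hoxa2.L and hoxa3.S, which pattern the hindbrain and branchial arches, were chosen by this likeness. Their means were, like that of snai2.S, higher at stage 18 than at stage 14 of the border, at 5.39 and 3.93 for hoxa3.S. The opposite pattern was clearest in tcf7l1.L, a Tcf factor that represses Wnt targets, for snai2.L (-0.921) and snai2.S (-0.898), and in lpar4.L, a receptor of lysophosphatidic acid, for snai1.S (-0.979). Among the 3 Snail probe sets themselves r was 0.86 for the 2 snai2 copies, 0.84 for snai1.S with snai2.L and 0.73 for snai1.S with snai2.S.

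The remaining genes of the crest network were counted in lists, each gene by its brightest probe set, with the .L and .S copies of a gene joined. Counted in the same way over all 6505 genes, 46.6% passed between the stage 14 border and the plate (21.8% higher, 24.8% lower), 34.5% between that border and the cap (16.8% higher), 7.47% between the border stages (3.75% higher) and 6.55% between the stage 18 border and the fold (3.57% higher). The neural border specifiers act before the Snail genes. Of 16 measured, 11 were higher in the stage 14 border than in the plate, 3 were lower and 2 did not pass, so that 68.8% were higher, with a median difference of 0.96 against 0.01 over all probe sets. The examples with the largest differences were zic5.S, a zinc finger gene, 22.1-fold higher (adjusted p = 8.71e-07), and msx2.L, a homeobox target of BMP signals, 8.31-fold higher (adjusted p = 2.78e-06). Against the cap 11 were higher and 2 lower, 81.2% against 34.5% of all genes, with zic1.S 56.9-fold higher (adjusted p = 2.3e-08).

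From stage 14 to stage 18 of the border, 1 border specifier was higher and 4 lower, 31.2% of the list against 7.47% of all genes. The higher one was mycn.S, a Myc factor gene, at 4.81-fold (adjusted p = 0.00694), and the lower ones included zic4.L, with a difference of -1.23 (adjusted p = 0.00262). Between the stage 18 border and the anterior fold 5 were higher and 2 lower, 43.8% of the list against 6.55% of all genes. The higher ones were led by tfap2a.L, the AP-2 factor gene upstream of crest genes, at 5.06-fold (adjusted p = 8.32e-06). Without stage 18 border replicate 2 the count of higher genes was 3, and without replicate 1 that of lower genes was 1.

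Of the 10 crest specifiers measured, 4 were higher in the stage 14 border than in the plate and 1 was lower, with a median difference of 0.32. The 50% that passed are close to the 46.6% of all genes, while 40% were higher against 21.8%. The 4 were tfap2b.L, sox9.S, sox10.L and foxd3.S, and foxd3.S differed least, at 3.77-fold, with a plate mean of 6.02. Without stage 14 border replicate 1 the lower genes numbered 2. In the plate foxd3.S was therefore well above background, where both snai2 probe sets were not. Against the cap the 4 higher genes were again tfap2b.L, sox9.S, sox10.L and foxd3.S, and 1 gene was lower. The 50% that passed compare with 34.5% of all genes, and the 40% that were higher with 16.8%. There sox9.S was at least 40.1-fold higher (adjusted p = 7.09e-06). From stage 14 to stage 18, where snai2.L differed by 0.06, sox10.L was 3.41-fold higher (adjusted p = 0.00324) and ets1.L, a gene of delaminating crest, 2.71-fold higher (adjusted p = 0.00989), and the other 8 did not pass. The 20% that passed between these stages compare with 7.47% of all genes. In the stage 18 border against the fold 5 were higher, 50% against 3.57% of all genes, and the other 5 did not pass. The median there was 1.22 against 0.00 over all probe sets.

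Crest is induced by Wnt and FGF signals together with an intermediate BMP signal, and 40 of 45 listed pathway genes were measured. Of these, 15 were higher and 6 lower in the stage 14 border than in the plate, with a median of 0.30. The 52.5% that passed lie close to the 46.6% of all genes, while 37.5% were higher against 21.8% and 15% lower against 24.8%. The ligand gene wnt8a.L was 13.5-fold higher (adjusted p = 4.39e-07) and the Wnt receptor gene fzd10.S 6.08-fold higher (adjusted p = 0.000107), while tcf7l1.L differed by -2.66 (adjusted p = 1.98e-06) and bmp4.S, whose border level was within background, was at least 3.71-fold lower (adjusted p = 1.91e-05). Against the cap 16 were higher and 5 lower, 52.5% against 34.5% of all genes. Among them were axin2.S, a Wnt target, 14.2-fold higher (adjusted p = 6.38e-06) and bambi.L, a BMP target and inhibitor, with a difference of -4.93 (adjusted p = 1.26e-06).

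Between the border stages 2 of the 40 were higher and 3 lower, 12.5% against 7.47% of all genes. The higher count was 1 without stage 14 border replicate 3 or stage 18 border replicate 2, and the lower count was 1 without stage 18 border replicate 1 and 5 without fold replicate 2. The gene of the BMP and activin binding protein follistatin, fst.L, was 3.61-fold higher at stage 18 (adjusted p = 0.00115) and wnt8a.L differed by -1.23 (adjusted p = 0.00329). In the stage 18 border against the fold 8 were higher and 6 lower, 35% of the list against 6.55% of all genes. There wnt8a.L, within background in the fold, was at least 7.07-fold higher in the border (adjusted p = 3.93e-06). The secreted Wnt inhibitor gene frzb.L, within background in the border, was at least 6.25-fold lower (adjusted p = 1.21e-06).

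Among genes of junctions and adhesion named as Snail or Twist targets, 18 of 28 were measured, and 3 were higher and 7 lower in the stage 14 border than in the plate, with a median of -0.08. The 55.6% that passed compare with 46.6% of all genes, and the 38.9% that were lower with 24.8%. The lower genes included the tight junction genes ocln.S, with a difference of -1.67 (adjusted p = 9.75e-06), and cldn7.L, with -1.42 (adjusted p = 8.7e-05). The higher ones included cdh2.L, which encodes N-cadherin, at 7.10-fold or more (adjusted p = 8.94e-06). The claudin gene cldn1.S was at least 2.69-fold higher (adjusted p = 0.00153), with a plate level within background, and did not pass with raised levels (adjusted p = 0.0805). The E-cadherin gene cdh1.S, the best known Snail target, did not pass here, with means of 4.11 in the border and 4.58 in the plate, a value added after it was seen.

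Against the cap 2 junction genes were higher and 8 lower, 55.6% against 34.5% of all genes. The lower ones were led by the desmosome gene dsp.L at -2.55 (adjusted p = 7.58e-05). The higher count was 1 without stage 14 border replicate 1 or 3 or fold replicate 3. From stage 14 to stage 18 of the border 15 did not pass and 3 were higher, 16.7% against the 7.47% of all genes that passed. The higher genes were dsp.L at 2.57-fold (adjusted p = 0.00582), cdh1.S at 2.18-fold (adjusted p = 0.0117) and cdh2.L at 2.12-fold (adjusted p = 0.0406). The cdh1.S call was lost without stage 18 border replicate 2 (adjusted p = 0.0677), and the cdh2.L call without any 1 border array or without anterior fold replicate 1 (adjusted p from 0.0595 to 0.194). The 12 epidermis markers averaged 5.79 to 6.23 on the stage 14 border arrays and 6.70 to 7.05 on those of stage 18, and the part of epidermis in the dsp.L and cdh1.S values was not tested. In the stage 18 border against the fold 0 junction genes were higher and 2 lower, cdh20.L and pkp2.L, 11.1% against 6.55% of all genes. The lower count was 1 without fold replicate 1 or 2. It also changed without stage 18 border replicate 2, a fit that left 1 array in that group.

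Of 26 measured migration and matrix genes, 10 were higher and 3 lower in the stage 14 border than in the plate, with a median of 0.15. The 50% that passed are close to the 46.6% of all genes, while 38.5% were higher against 21.8%. The 3 lower genes of 26 compare with 24.8% of all genes. The higher genes were led by pdgfra.L at 9.35-fold (adjusted p = 1.87e-06), the metalloproteinase genes mmp28.L at 7.50-fold or more (adjusted p = 1.01e-05) and mmp14.L at 4.57-fold (adjusted p = 1.16e-06), and sparc.S, a matrix glycoprotein gene, at 4.18-fold (adjusted p = 0.000562). Against the cap 10 were higher and 2 lower, 46.2% against 34.5% of all genes. There zeb2.S, another zinc finger repressor of E-cadherin, was higher by 4.24 from a cap level within background (adjusted p = 9.08e-06). The intermediate filament gene vimentin, vim.L, was 18.1-fold higher (adjusted p = 1.82e-06). Between the border stages 1 was higher and 1 lower, 7.69% against 7.47% of all genes, and the higher count was 0 with only the arrays compared. In the stage 18 border against the fold 4 were higher and 3 lower, 26.9% against 6.55% of all genes. The largest differences were those of pdgfra.L at 6.75-fold (adjusted p = 2.54e-05) and mmp14.L at a difference of 2.35 (adjusted p = 3.47e-06). Folds written as a lower bound are against the background level of 3.72, where the lower tissue read below it. With 1 array left out, the lower count against the cap was 1 without stage 14 border replicate 2 or 3, and that against the fold was 1 without stage 18 border replicate 2.

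The partners, corepressors and turnover factors of Snail and Twist proteins were measured for 21 of 35 listed genes. Of these, 2 were higher and 5 lower in the stage 14 border than in the plate, with a median of 0.00. The 33.3% that passed are fewer than the 46.6% of all genes. The corepressor gene sin3a.S differed by -1.31 (adjusted p = 3.59e-05) and pak1.S, a kinase known from mammalian cells to phosphorylate Snail, by -1.59 (adjusted p = 0.000447). The gene of the F-box protein that marks Snail and Twist proteins for degradation, fbxl14.S, differed by -1.34 (SE 0.39, adjusted p = 0.0192), a call lost without plate replicate 1 or 2 or stage 14 border replicate 2 or 3 (adjusted p from 0.0575 to 0.0982). The LIM protein gene wtip.L was 2.24-fold higher (adjusted p = 0.000206). The higher count was 1 without plate replicate 1, stage 14 border replicate 3 or fold replicate 1 or 2, and the lower count was 3 without plate replicate 2.

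Against the cap 3 partners were higher and 2 lower, 23.8% against 34.5% of all genes. Among them were kdm1a.S, the histone demethylase recruited by Snail, 2.08-fold higher (adjusted p = 0.00264) and id2.L, an inhibitor of helix-loop-helix factors, at -2.34 (adjusted p = 0.000491). In the stage 18 border against the fold limma called 0 of the 21, in a comparison where only 6.55% of all genes passed. An unadjusted p under 0.05 was found for 6 of the 21, and for 1200 of all 6505 genes. Without fold replicate 3 limma called 1 of the 21. The count also changed without stage 18 border replicate 1, a fit that left 1 array in that group. The largest differences there were 0.76 for fbxl14.S (adjusted p = 0.382) and 0.65 for id2.L (adjusted p = 0.214). Of the Snail and Twist relatives only hand1.L and hand2.L were measured of 10 listed, and their group means ran from 3.17 to 3.82, above the background level in the cap only. Both were lower in the stage 14 border than in the cap (adjusted p = 0.0138 and 0.0319), by at least 1.07-fold and 1.05-fold, and hand1.L passed as lower than in the plate (adjusted p = 0.0244) with both means within background. The hand1.L call over the plate was lost without plate replicate 1 or stage 14 border replicate 2 or 3, and the hand2.L call without stage 14 border replicate 1 or 3.

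**Figure D5:**
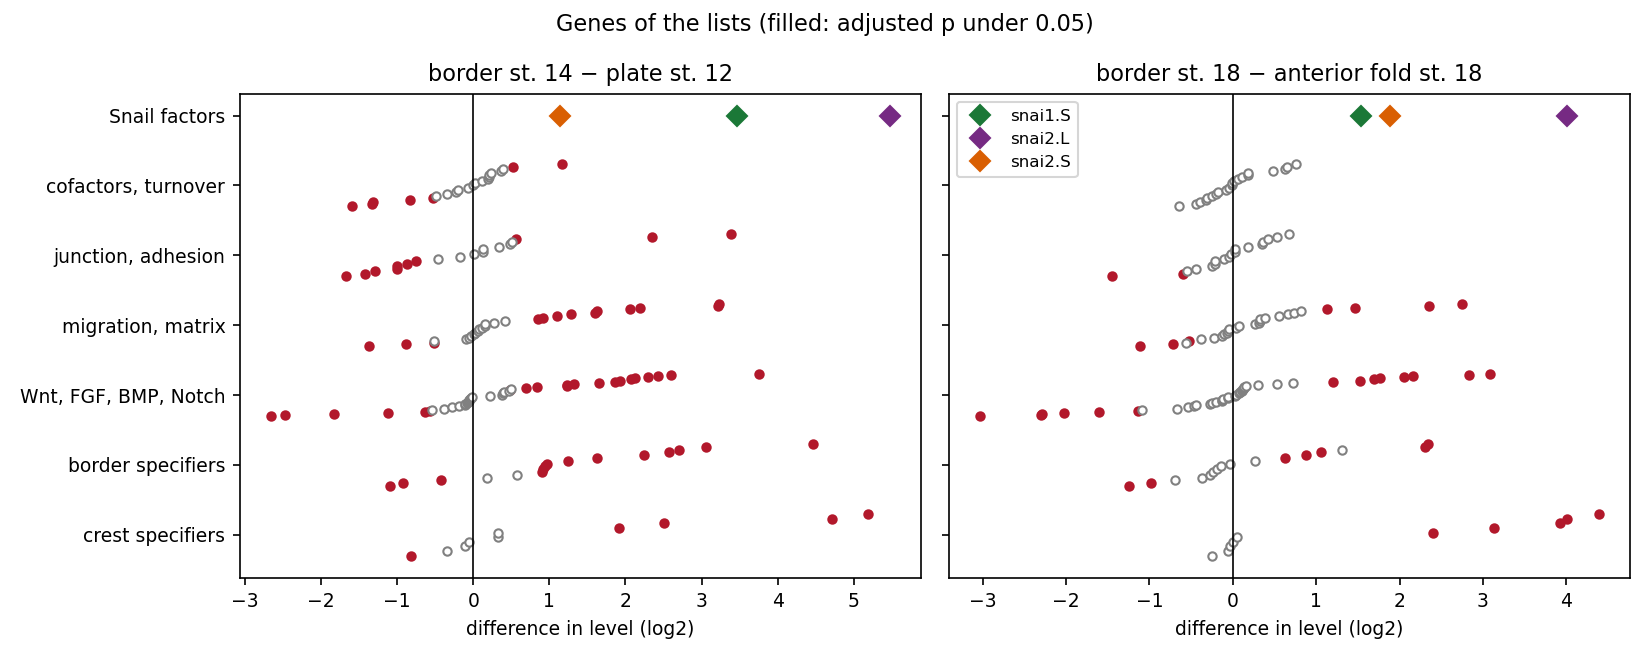
Difference in level (log2) of each measured gene of 6 lists and of the 3 Snail probe sets, for the stage 14 border against the plate and the stage 18 border against the anterior fold, with filled points for an adjusted p under 0.05. The right panel has no filled point among the 21 cofactor and turnover genes, in a comparison where 6.55% of all genes passed.

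Markers of mesoderm, in which snai1 is also known, were read beside the Snail levels. The 13 measured muscle and paraxial mesoderm genes averaged 3.30 to 3.52 on the stage 14 border arrays, 3.26 to 3.42 on those of stage 18, 3.16 to 3.30 in the fold, 3.40 to 3.42 in the plate and 3.61 in the cap. Of the 13, 2 exceeded the background level on any array in each of the border and fold groups, 4 in the plate, with the muscle determination gene myf5.L among them, and 3 in the cap. The genes myod1.L, myf6.L, myog.L, tbx6.L and msgn1.L were at or below it in all groups. The 7 axial mesoderm genes averaged 3.23 to 3.35 in the border, 4.31 to 4.51 in the fold, 4.16 to 4.29 in the plate and 3.25 in the cap. Above the background level on any array were 3 of the 7 in the fold and 4 in the plate. In the border 1 was at stage 14 and 2 at stage 18, and 1 was in the cap. At or below it on all fold arrays were tbxt.S, foxa4.S, col9a1.L and col8a1.S, and on both plate arrays shh.L, col9a1.L and col8a1.S. The 10 lateral mesoderm, blood and macrophage genes averaged 4.56 in the cap and 3.82 to 4.26 on the other arrays, with 3 to 5 of them above the background level in each group. The array's beta actin controls, as the 3′ level minus the 5′ level, had group means of -2.51 in the plate, -2.93 in the stage 14 border, -2.87 in the stage 18 border, -2.73 in the fold and -3.14 in the cap. The Gapd controls had group means of 2.30 in the plate, 2.29 and 2.37 in the border at stages 14 and 18, 2.32 in the fold and 1.85 in the cap. A part of RNA quality in the Snail differences was not tested.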

How the data were processed

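The deposited table, used as the authors left it, held log2 intensities for 15611 probe sets on 11 arrays, a scale read from the range of 2.13 to 13.56 and array medians of 4.94 to 5.04, with no label naming it. Their normalization method was not given in the sources used here. The submitters' processing notes name R 2.14.2. Arrays of a group correlated at 0.983 to 0.993, and their number limits the precision. After the 120 controls were left out, 1 linear model with a mean per group was fitted to all 11 arrays with limma 3.58.1 in R 4.3.3, with eBayes (6 residual and 3.75 prior degrees of freedom), two-sided p-values and Benjamini-Hochberg adjustment over 15491 probe sets. For the single cap array the spread of the other tissues was assumed. The same model was fitted to the .L minus .S difference of 1017 genes, each copy by its brightest probe set. The procedure was tested on simulated data.

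Probe sets were named from the platform's annotation, with symbols updated through the RefSeq table, where 9304 had 1 symbol, 195 several and 5992 none. RefSeq gives snai1.L as a synonym of snai1.S. No genome was used, so no coordinates or sequences are given. All members were named, with up to 4 genes per list past the threshold by size of difference, or up to 2 where none passed, and for likeness the 5 most and 3 least correlated. The members and lists were chosen with earlier results of these data known. Other normalizations, weights, filters, adjustments, a replicate block, fits to the arrays compared alone and fits without each array were tried.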

Additional observations from a re-analysis of the deposited data

How the results depend on the processing

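Of 300 repeats of the Snail and copy-difference results of the 4 main comparisons, 278 kept their direction and side of the threshold. Raising levels below 3.72 to 3.72 was chosen after seeing the data. For snai2.S it gave 0.34 for stage 14 border over plate (adjusted p = 0.255), 0.34 over cap (0.425) and 0.89 for stage 18 over stage 14 border (0.0683). The last was also lost at 0.93 with quantile normalization (0.0524) and at 0.97 with only the arrays compared (0.137), and ranged from 0.73 to 1.21 with 1 array left out. The cap difference of snai2.S was lost at 0.99 with only the arrays compared (0.126) and ranged from 0.75 to 1.24 with 1 array left out. The stage 18 over stage 14 border difference of snai1.S passed at 0.91 with p-values adjusted over all 10 pairs of groups together (0.0271) and ranged from 0.70 to 1.10 with 1 array left out, and that of snai2.L ranged from -0.014 to 0.14. The copy difference for stage 18 border over fold ranged from 1.56 to 2.41. The filter on dim probe sets removed snai2.S and gives it no value. Some genes without a call changed sign with 1 array left out: snai2.S for fold minus cap (-0.00082 without fold replicate 3), snai1.S for plate minus cap (-0.31 to 0.50), hand1.L for stage 18 border minus stage 14 border (-0.031 to 0.16) and minus fold (-0.15 to 0.044), and hand2.L between border stages (-0.057 to 0.033, and 0.0095 with quantile normalization). Probe sets past the threshold between border stages numbered 1016, against 233 with only the arrays compared, 480 with raised levels, 1914 adjusted over all pairs and 458 to 859 with 1 array left out, and between stage 18 border and fold 925, against 515, 1640 (raised, all pairs) and 543 to 1058. With 1 array left out they were 4418 to 6543 for stage 14 border against plate and 3902 to 4980 against cap. Of the list counts 104 of the repeats moved by over 1.5 times, or to or from 0, and 960 did not. The causes were not tested.

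Same-numbered arrays were not taken as paired, since neither the labels nor the 3 pairs of stage 14 border and fold support it (correlations of deviations -0.033, -0.015 and -0.0087). With 2 shared numbers the correlation was 0.14 for stage 18 border with stage 14 border and with fold, and -0.11 to -0.027 for the plate with the other tissues. With the replicate number as a block, snai2.S gave 1.01 between border stages (adjusted p = 0.0679) and 1.04 over cap (0.05001), snai1.S gave -0.054 for plate minus cap, and 620 probe sets passed between border stages.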
